A study of Mus musculus with 66 samples.

Results

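The comparison described here is cocaine against saline in the nucleus accumbens (NAcc) of iMSN-D2RKO mice at zeitgeber time 15 (ZT15). It covers the 13518 genes, of 24138 in the table, that reached 1 FPKM (a read density scaled to transcript length and library size) in at least 1 of the 6 libraries. The 6 libraries were 3 of saline-treated and 3 of cocaine-treated mice, out of 66 libraries in all. The mice were male, 3 to 5 months old, on a C57BL/6J background, and carried D2R flox/flox with D1R-CRE+/-. In these mice the promoter of the dopamine D1 receptor (D1R) drives CRE recombinase. The deletion of the dopamine D2 receptor (D2R) is meant for medium spiny neurons of the indirect pathway (iMSNs). Since adult iMSNs carry little D1R, it relies on D1R-driven CRE before these cells mature. Each mouse received 1 intraperitoneal injection at ZT3, of cocaine at 20 mg/kg or of saline, and ventral striatum punches were taken 12 h later, in the dark phase, when mice are active. The mutation and the injection itself were therefore shared by both groups. WT mice treated in the same way and the other iMSN-D2RKO time points were used only to show where this comparison differed.

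Cocaine blocks the reuptake of dopamine and so raises dopamine in the NAcc within minutes. Direct pathway spiny neurons carry D1R and respond to dopamine through cyclic AMP, with immediate early genes among the first transcripts induced. Indirect pathway neurons normally carry D2R, which lowers cyclic AMP.

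The labelled tissue was checked against its markers. All 22 genes of a list shared by spiny neurons were detected, with summed levels of 4531 to 6851 FPKM in the 6 libraries. Drd2, the gene of D2R, was listed at 78.0, 224 and 92.9 FPKM in saline and at 122, 117 and 259 FPKM in cocaine. The 3 WT saline libraries at ZT15 stood at 118 to 129 FPKM, inside the range of the mutants. The values cover the whole gene and all cells of the punch, so they do not check the deletion. In bulk tissue, fewer cells of a type and less RNA per cell cannot be told apart.

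1 library in each group stood apart from the rest. Over all 66 libraries, 1 axis held 43.6% of the variance within groups, and 13 libraries scored above 30 on it. Saline replicate 2 scored 50.03 and cocaine replicate 3 scored 51.3, whereas the other 4 libraries of this comparison lay between -14.3 and -1.81. The same 2 libraries had the highest Drd2 values of the 6. They also had the lowest sequencing depth of the 6, at 0.662 and 0.664 of the median library, against 0.886 to 1.12 in the others. Relative depth was estimated from 1439 genes detected in only a few of the 66 libraries, because FPKM values keep no read totals.

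No gene passed the test. With limma on log2(FPKM + 1), 0 of 13518 genes reached an adjusted p under 0.05, a share of 0.0%, and the smallest adjusted p was 0.339. At an unadjusted p under 0.05, 58 genes (0.429%) were higher and 146 (1.08%) were lower in cocaine. Together they made 1.51% of the genes tested, less than the share of 0.05 that this threshold would give if no gene differed. The log2 difference, cocaine minus saline, had a median of 0.00 over all genes, and 80% of them lay between -0.19 and 0.17. Among the 9760 genes with a mean of at least 5 FPKM in the higher group, the 95% interval of the log2 difference had a median half-width of 0.45, and for 9032 of them (92.5%) it lay inside -1 to 1. A simulation drew independent noise for each gene and library, with the spread of each gene from the fit of all 66 libraries. There the test found 130 of 200 genes shifted by 1 on the log2 scale (65%), but only 26 of 200 shifted by 0.5 (13%). In that setting many differences of 0.5 log2 units were thus not detectable with 3 libraries a group. The simulated noise lacked the axis that genes share in the real libraries, so these rates need not hold for them. Without the set-apart libraries the count of calls was again 0, with 171 genes higher and 332 lower at an unadjusted p under 0.05. The values of the 3 cocaine libraries lay wholly above those of saline for 226 genes (1.67%) and wholly below for 321 (2.37%).

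Since no gene was called, the values that follow are given as measured differences with unadjusted limma p-values. The adjusted p was above 0.99 for each gene named below, apart from Fam83d.

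**Figure D1:**
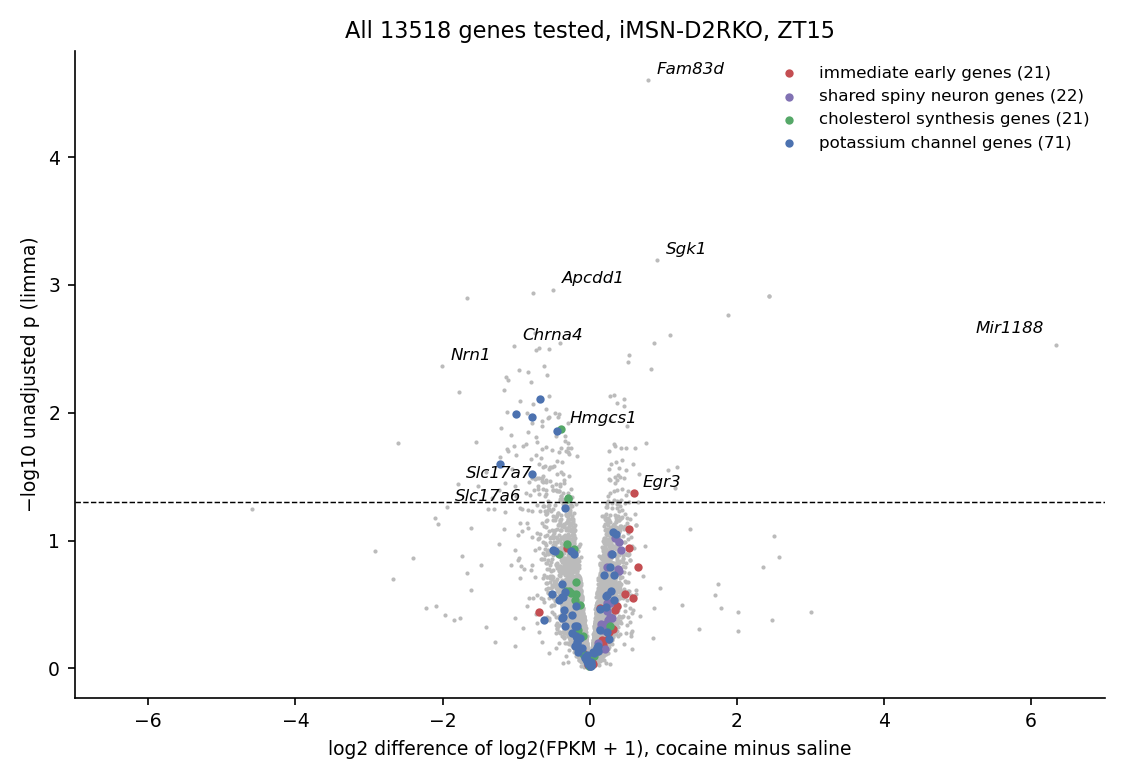
Log2 difference in log2(FPKM + 1), cocaine minus saline (horizontal), against −log10 of the unadjusted limma p (vertical) for the 13518 genes tested in iMSN-D2RKO mice at ZT15. The dashed line marks an unadjusted p of 0.05, with 58 genes above it on the right and 146 on the left. Colours mark 4 gene lists.

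Among genes higher in cocaine, Sgk1 had the smallest p of those with a mean of at least 5 FPKM. Sgk1 encodes a serum- and glucocorticoid-regulated kinase that controls ion channels and transporters, and it lies on chromosome 10 (21882184 to 21999903, GRCm38.p6). It stood at 29.3, 34.3 and 31.5 FPKM in saline and at 32.3, 75.7 and 91.3 FPKM in cocaine. Cocaine replicates 2 and 3 were far above saline, whereas replicate 1 was inside the saline range. The means were 31.7 ± 2.53 and 66.4 ± 30.6 FPKM (SD, n = 3 each). The log2 difference was 0.92 (SE 0.25, 95% interval 0.41 to 1.43, unadjusted p = 0.000642), and it was not called. Without cocaine replicate 1 the log2 difference was 1.37 with an adjusted limma p of 0.0152. That replicate lay inside the saline range, so its removal had to widen the difference. Without cocaine replicate 3 the log2 difference was 0.63 (unadjusted p = 0.0229), and without the set-apart libraries it was 0.69 (unadjusted p = 0.0380).

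The other higher genes had the following values. Slc9a5, a sodium-proton exchanger of neurons, stood at 11.3, 12.4 and 11.4 FPKM in saline and at 17.0, 17.1 and 15.5 FPKM in cocaine. The groups did not overlap, and the log2 difference was 0.47 (SE 0.17, unadjusted p = 0.00784). Cyp2d22, a cytochrome P450 of the family that includes drug-metabolizing enzymes, had 11.7, 11.7 and 11.2 FPKM in saline and 13.1, 15.9 and 15.5 FPKM in cocaine. Its log2 difference was 0.33 (SE 0.12, unadjusted p = 0.00730), again without overlap. Kazn, a cytoskeletal linker, stood at 62.9 to 82.8 FPKM in saline and 86.7 to 94.1 FPKM in cocaine, and Rbm28, a nucleolar RNA-binding protein, at 13.5 to 15.1 and 16.3 to 19.5 FPKM. Fgf3, a growth factor, ranged from 3.55 to 5.81 FPKM in saline and from 6.13 to 10.6 FPKM in cocaine. The predicted gene Gm7244 showed 2.66 to 3.16 FPKM in saline and 5.80 to 6.34 FPKM in cocaine. Sult1a1, a sulfotransferase, overlapped between the groups, with 4.08 to 8.70 and 6.61 to 11.5 FPKM. Its log2 difference was 0.61, or 0.39 without saline replicate 3.

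The smallest adjusted p of all genes belonged to Fam83d, a gene of the mitotic spindle, which was singled out after its values were seen. It stood at 1.92, 1.45 and 1.49 FPKM in saline and 2.58, 4.64 and 3.56 FPKM in cocaine. The groups did not overlap, and the log2 difference was 0.79 (SE 0.17), with an adjusted p of 0.339 by limma. Across the other 60 libraries Fam83d ranged from 0.983 to 3.46 FPKM, so 2 of the cocaine values were above all of these. The highest of the 60 was a WT cocaine library at ZT15. Fam83d was higher with cocaine in WT at ZT15 too. It had 1.54, 2.23 and 1.77 FPKM in WT saline and 3.23, 3.46 and 2.69 FPKM in WT cocaine, without overlap. The log2 difference in WT was 0.54 (SE 0.17), and iMSN-D2RKO minus WT was 0.25 (SE 0.24). Without cocaine replicate 1, the lowest of the 3, the adjusted limma p of Fam83d in iMSN-D2RKO was 0.0179. Without cocaine replicate 2, the highest, it was 0.9997.

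**Figure D2:**
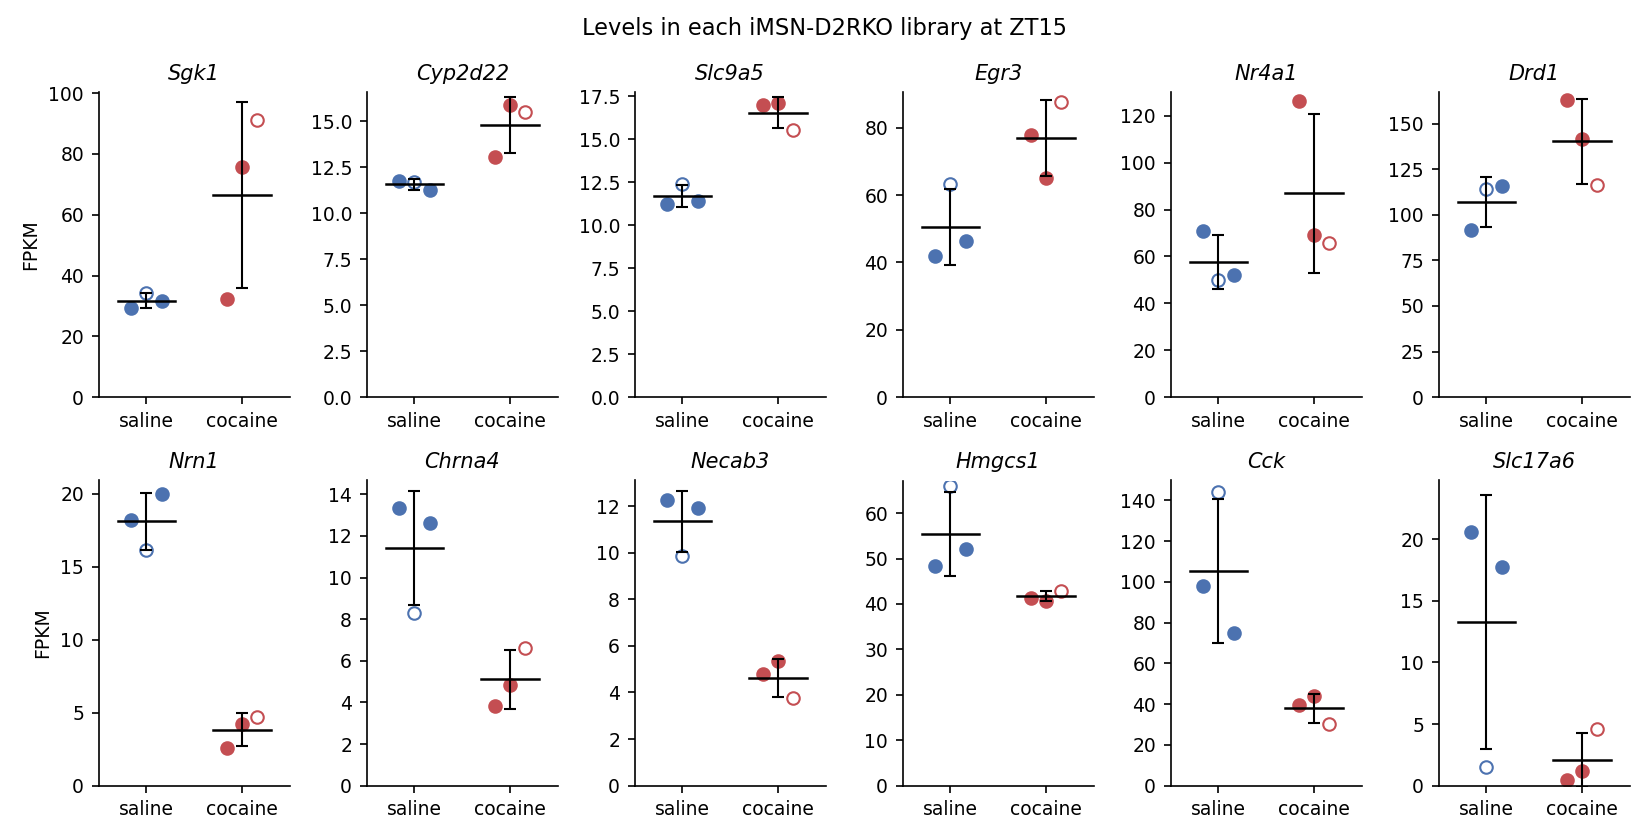
FPKM of 12 genes (vertical axes, each from 0) in the 3 saline (blue) and 3 cocaine (red) iMSN-D2RKO libraries at ZT15, replicates 1 to 3 from left to right within a group. Open circles are the set-apart libraries, and bars are the mean ± SD. Nrn1, Necab3 and Slc9a5 show no overlap between groups, whereas for Sgk1 cocaine replicate 1 lies among the saline values.

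Among the lower genes, Nrn1 had the largest difference of the 12 with the smallest p. Nrn1 encodes neuritin, a membrane-anchored protein of neurites and synapses whose transcript is induced by neuronal activity. It stood at 18.2, 16.1 and 19.97 FPKM in saline and at 2.58, 4.20 and 4.72 FPKM in cocaine. The cocaine mean was 0.212 of the saline mean, and the groups were far apart. The log2 difference was -2.004 (SE 0.67, 95% interval -3.35 to -0.66, unadjusted p = 0.00430). The other 60 libraries ranged from 1.73 to 49.6 FPKM, so both groups lay within the spread of the series. In WT saline at ZT15 Nrn1 had 4.39 to 9.71 FPKM, below all 3 mutant saline values. The saline groups, iMSN-D2RKO minus WT, differed by 1.25 (SE 0.67). The mutant saline values entered the choice of this gene.

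The other lower genes had log2 differences of smaller size. Chrna4, a nicotinic acetylcholine receptor subunit, had 13.3, 8.30 and 12.6 FPKM in saline and 3.85, 4.83 and 6.64 FPKM in cocaine, a log2 difference of -1.02 (SE 0.33, unadjusted p = 0.00302). Cacna1g, a T-type calcium channel, had 12.6, 4.09 and 11.1 FPKM in saline and 2.85, 3.97 and 3.396 FPKM in cocaine. Its set-apart saline library was thus close to the cocaine values. Slc6a7, the brain proline transporter, showed the same layout, with 18.1, 9.07 and 16.4 FPKM in saline and 7.06, 9.05 and 7.38 FPKM in cocaine. Faah, the enzyme that degrades the endocannabinoid anandamide, stood at 8.005, 6.86 and 7.68 FPKM in saline and 3.59, 4.93 and 4.35 FPKM in cocaine, a log2 difference of -0.69 (SE 0.22, unadjusted p = 0.00313). The calcium-binding protein gene Necab3 had 12.3, 9.84 and 11.9 FPKM in saline and 4.78, 5.34 and 3.74 FPKM in cocaine, a log2 difference of -1.14 (SE 0.39). Apcdd1, an inhibitor of Wnt signalling, differed by -0.50 (SE 0.14), from 11.7 to 12.6 FPKM in saline to 7.27 to 9.71 FPKM in cocaine. Slc24a3, a sodium-calcium exchanger, Cux2, a transcription factor of upper-layer cortical neurons, Adgra1, an adhesion receptor, and Mfsd4, a transporter-like protein, completed the set, with log2 differences from -0.96 to -0.63 and no overlap. In WT saline at ZT15 Slc24a3 had 19.8 to 21.5 FPKM and Cacna1g 4.03 to 5.53 FPKM, near the mutant cocaine values. The saline groups, iMSN-D2RKO minus WT, differed by 0.58 (SE 0.21) and 0.68 (SE 0.38) for these genes. For Apcdd1 and Mfsd4 they differed by 0.13 (SE 0.14) and 0.04 (SE 0.28). The mutant saline values entered the choice of all these genes.

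Saline replicate 2 was the lowest of the 3 saline libraries for 10 of the 12 lower genes with the smallest p, Mir6336 with a tie at 0 included. This held for 96 of the 146 genes lower at an unadjusted p under 0.05 (65.8%), against 39.2% of all genes tested. A like layout was seen for Slc17a6. Slc17a6, the glutamate transporter of thalamic, hypothalamic and septal neurons, was listed at 20.6, 1.49 and 17.7 FPKM in saline and at 0.470, 1.16 and 4.57 FPKM in cocaine. Its log2 difference was -1.94 (SE 0.99, unadjusted p = 0.0548), and -3.50 without the set-apart libraries. The part of such neurons in the lower genes was not tested.

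The 6 tested septal and hypothalamic markers were all lower in cocaine (0 at an unadjusted p under 0.05, median log2 difference -0.65, against 0.00 over all genes, and -1.22 without the set-apart libraries). Their summed level ranged from 13.6 to 69.8 FPKM in saline and from 12.9 to 24.7 FPKM in cocaine, with Hcrt at 0 in the 6 libraries. The 5 cortical excitatory markers were also lower, 1 of them at an unadjusted p under 0.05, with a median of -0.83 and sums of 27.6 to 161 FPKM in saline and 3.44 to 46.6 FPKM in cocaine. Among them Slc17a7, the cortical glutamate transporter, stood at 47.2, 98.8 and 26.3 FPKM in saline and 30.1, 35.4 and 1.78 FPKM in cocaine (log2 difference -1.79, SE 0.83, and -0.11 without the set-apart libraries). Without cocaine replicate 3 alone it was -0.60. The cortical signal was highest in saline replicate 2 and lowest in cocaine replicate 3, both set apart. Without the set-apart libraries, 4 of the 5 cortical markers were higher in cocaine, and the median was 0.60. Of the 7 tested choroid plexus and ependymal markers 4 were positive, with a median of 0.28 and none at an unadjusted p under 0.05. Their sums were 261, 20.6 and 15.2 FPKM in saline and 29.7, 29.2 and 21.4 FPKM in cocaine. The choroid plexus gene Ttr made up most of the sum in saline replicate 1. It was at 232 FPKM in saline replicate 1 and at most 1.13 FPKM in the other 5 libraries. Pvalb, a marker of fast-spiking interneurons, had 103, 5.44 and 99.3 FPKM in saline and 5.75, 26.4 and 42.9 FPKM in cocaine, following Slc17a6 in the saline group.

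**Figure D3:**
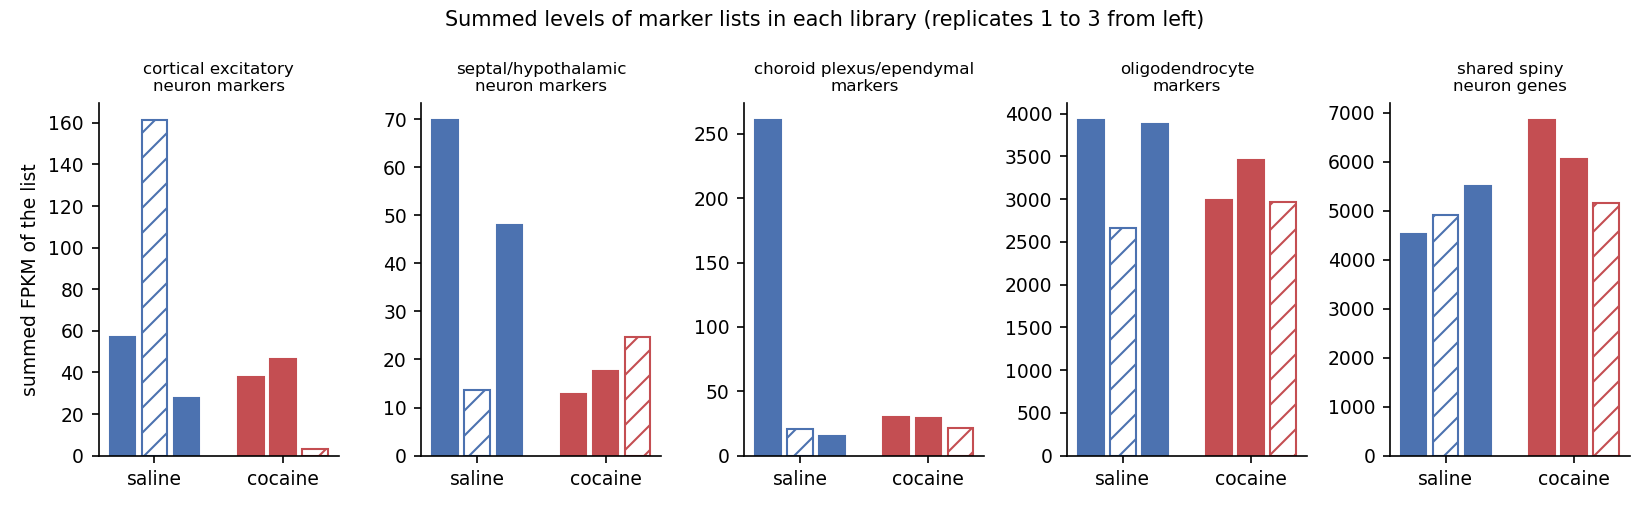
Summed FPKM (vertical axes, from 0) of 4 marker lists and of the list of genes shared by spiny neurons in each library, replicates 1 to 3 from left to right, saline in blue and cocaine in red. Hatched bars are the set-apart libraries. Septal and hypothalamic markers are highest in saline replicates 1 and 3, cortical markers in saline replicate 2.

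Spiny neuron genes lay slightly higher in cocaine as a group. Of 22 shared spiny neuron genes, 22 had a positive log2 difference, against 51.5% of all genes tested, with a median of 0.24. None reached an unadjusted p of 0.05, and only Rgs9, a regulator of dopamine receptor signalling, did not overlap (151 to 228 FPKM in saline, 228 to 263 FPKM in cocaine). Their summed levels overlapped, at 4531 to 5515 FPKM in saline and 5164 to 6851 FPKM in cocaine. Ptpn5, the striatal phosphatase STEP, ranged from 195 to 231 FPKM in saline and from 229 to 318 FPKM in cocaine. Without the set-apart libraries 20 of 22 were positive, with a median of 0.36. The genes share the same 6 libraries, so they are not independent of each other. Markers of myelin moved the other way. 9 of 10 oligodendrocyte markers were lower (median -0.13), with sums of 2660 to 3922 FPKM in saline and 2962 to 3461 FPKM in cocaine, none at an unadjusted p under 0.05. Without the set-apart libraries their median was -0.30.

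Both output pathways showed this slight difference, with no member of either list at an unadjusted p under 0.05 in the main fit. Of the 8 direct pathway genes 7 were positive (median 0.19), against 51.5% of all genes tested. Their sums were 421 to 534 FPKM in saline and 552 to 727 FPKM in cocaine. Drd1 stood at 91.4, 114 and 116 FPKM in saline and 163, 141 and 117 FPKM in cocaine, a log2 difference of 0.38 (SE 0.21, unadjusted p = 0.0799), and 0.56 (unadjusted p = 0.0152) without the set-apart libraries. Tac1, the precursor of substance P, had 190, 286 and 221 FPKM in saline and 359, 259 and 322 FPKM in cocaine (log2 difference 0.44, SE 0.23). Of the 8 indirect pathway genes 6 were positive (median 0.26). Their sums overlapped, at 1972 to 3121 FPKM in saline and 2730 to 3532 FPKM in cocaine. Penk, the enkephalin precursor, overlapped between groups, with means of 2057 ± 512 and 2738 ± 397 FPKM (SD, n = 3 each). The orphan receptor Gpr52 did not overlap, at 25.5 to 37.1 FPKM in saline and 39.8 to 49.5 FPKM in cocaine, with an unadjusted p of 0.212. The log2 difference of Drd2 itself was 0.39, with an interval of -0.44 to 1.22. It was 0.02 without cocaine replicate 3 and 0.85 without saline replicate 2.

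Of the immediate early genes, which mark recent neuronal activity, 16 of 21 tested were positive, against 51.5% of all genes tested. The median log2 difference was 0.25, or 0.38 without the set-apart libraries. The summed level of the list was 602, 485 and 452 FPKM in saline and 900, 514 and 571 FPKM in cocaine. Only the sum of cocaine replicate 1 was above all saline sums. The transcription factor gene Egr3 stood at 41.9, 63.3 and 46.3 FPKM in saline and 77.9, 65.1 and 87.6 FPKM in cocaine. It was the only member of the list at an unadjusted p under 0.05, and the only one without overlap, although cocaine replicate 2 was just above saline replicate 2. The means were 50.5 ± 11.3 and 76.9 ± 11.3 FPKM (SD, n = 3 each). The log2 difference was 0.61 (SE 0.29, 95% interval 0.02 to 1.196, unadjusted p = 0.0428). Nr4a1, a nuclear receptor induced by cyclic AMP, had 70.8, 49.9 and 52.1 FPKM in saline and 126, 69.1 and 65.9 FPKM in cocaine. Only cocaine replicate 1 was above all saline values, and the log2 difference was 0.54 (SE 0.30, unadjusted p = 0.0816), or 0.24 without that library. Fosb showed 4.05 to 7.38 FPKM in saline and 6.62 to 13.1 FPKM in cocaine, and Jun 21.7 to 26.8 and 15.2 to 23.6 FPKM. Fos and Arc, members outside the naming rule, were looked up after their values were seen. Fos differed by 0.04 (16.6, 3.07 and 6.75 FPKM in saline, 14.2, 6.79 and 4.15 FPKM in cocaine), and Arc by 0.48 (27.4 to 84.0 and 42.7 to 111 FPKM).

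Of 16 activity-induced plasticity genes 13 were positive, against 51.5% of all genes tested, with a median of 0.23. Crem, the cyclic AMP response modulator, was at 4.82, 8.27 and 6.27 FPKM in saline and 8.58, 8.26 and 9.18 FPKM in cocaine (log2 difference 0.40, SE 0.18, unadjusted p = 0.0269), or 0.24 without saline replicate 1. Nrn1, described above, was the member with the largest difference and had the opposite sign. Rheb, an activator of the mTOR kinase, did not overlap, at 46.6 to 52.2 FPKM in saline and 53.6 to 65.6 FPKM in cocaine. Vgf, a secreted neuropeptide precursor, had 152, 134 and 136 FPKM in saline and 258, 159 and 139 FPKM in cocaine.

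**Figure D4:**
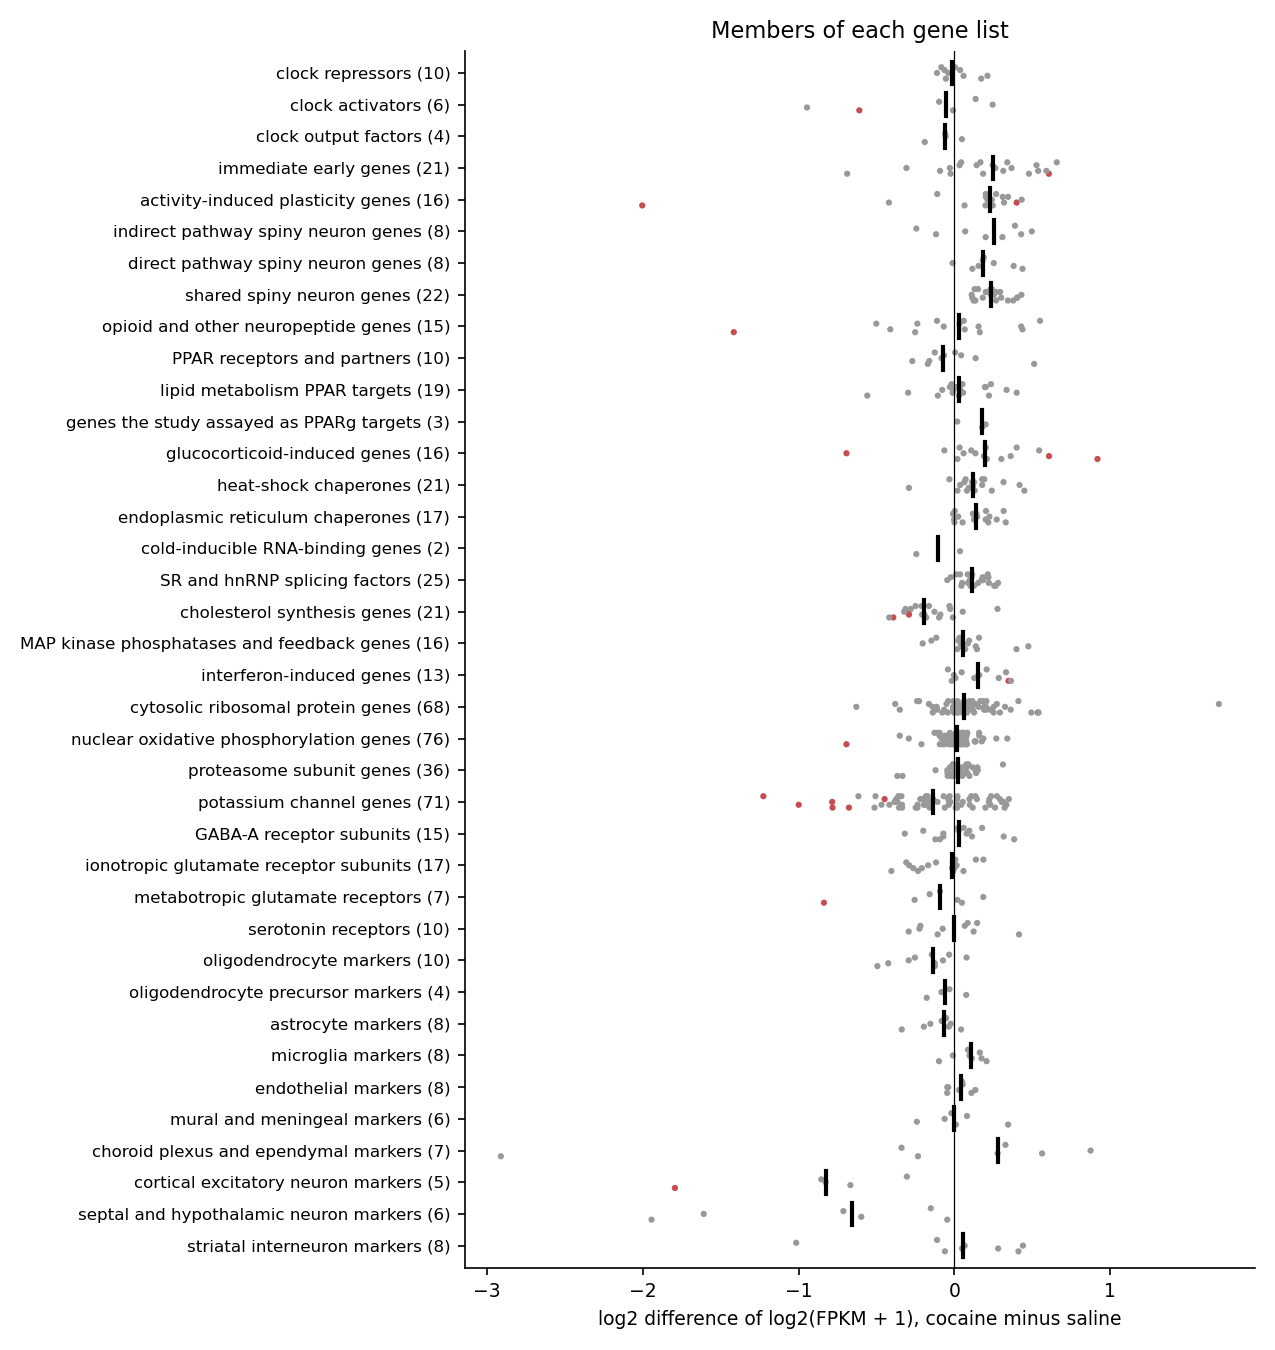
Log2 difference in log2(FPKM + 1), cocaine minus saline, for each tested member of the gene lists (number tested in brackets). Grey points have an unadjusted limma p of at least 0.05, red points a smaller one, and black bars are list medians. Shared spiny neuron genes lie to the right of 0, and most cholesterol synthesis genes to the left.

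Of the 10 repressors of the circadian clock, which switch off their own activators each day, none reached an unadjusted p of 0.05 and the median was -0.02. Per1 stood at 37.5, 31.1 and 37.1 FPKM in saline and 43.1, 35.1 and 32.5 FPKM in cocaine, a log2 difference of 0.06 with an interval of -0.37 to 0.49. Cry1 had 16.9 to 17.8 FPKM in saline and 17.6 to 22.9 FPKM in cocaine (0.17, interval -0.12 to 0.47). The activator Arntl, also called Bmal1, differed by 0.25 (interval -0.19 to 0.69), and the output factor Dbp by -0.19 (interval -0.88 to 0.50). These intervals do not show that the levels were equal. Among activators, Rorb, a nuclear receptor, had 3.31, 2.304 and 3.63 FPKM in saline and 1.56, 1.56 and 1.84 FPKM in cocaine (unadjusted p = 0.026). Rora had 14.0, 5.68 and 15.7 FPKM in saline and 3.77, 5.15 and 6.98 FPKM in cocaine, a layout like that of Slc17a6.

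PPARγ and its targets were of special interest to the study. Pparg itself did not reach 1 FPKM in any of the 6 libraries and was not tested, with 0.330 to 0.574 FPKM in saline and 0.129 to 0.263 FPKM in cocaine. None of the 10 tested PPAR receptors and partners and none of the 19 lipid metabolism targets reached an unadjusted p of 0.05, with medians of -0.07 and 0.03. The 3 genes assayed by the study as PPARγ targets overlapped between groups. Adora2a, the adenosine receptor of indirect pathway neurons, stood at 129, 87.8 and 168 FPKM in saline and 205, 158 and 89.4 FPKM in cocaine (log2 difference 0.20, interval -0.52 to 0.93). Gabrd, a GABA-A receptor subunit, had 46.7 to 93.2 and 51.0 to 109 FPKM (0.18, interval -0.46 to 0.82). The potassium channel gene Kcnd1 had 3.08 to 4.11 and 3.35 to 3.96 FPKM (0.02, interval -0.29 to 0.32). The set-apart library had the lowest Adora2a and Gabrd value of its group in both groups.

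Of 16 glucocorticoid-induced genes 14 were positive, against 51.5% of all genes, with a median of 0.20. Sgk1 and Sult1a1 were the 2 that were higher at an unadjusted p under 0.05, against 0.429% of all genes. Zbtb16, a transcription factor, went the other way, with 4.72, 4.49 and 3.03 FPKM in saline and 0.927, 4.74 and 1.72 FPKM in cocaine (log2 difference -0.69, SE 0.31, unadjusted p = 0.0324). Without cocaine replicate 1 its difference was -0.35, and without cocaine replicate 2 it was -1.13. Cdkn1a, an inhibitor of the cell cycle, did not overlap, at 5.79 to 8.01 FPKM in saline and 8.42 to 11.9 FPKM in cocaine.

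Cholesterol synthesis genes lay lower in cocaine. Of 21 tested, 2 were positive, against 51.5% of all genes, and the median was -0.19. An unadjusted p under 0.05 was reached by 3, against 1.08% of all genes in this direction. Without the set-apart libraries 4 were positive and the median was -0.15. Hmgcs1, which makes the precursor of mevalonate, stood at 48.4, 65.9 and 52.1 FPKM in saline and 41.4, 40.7 and 43.0 FPKM in cocaine. The groups did not overlap, and the 3 cocaine values were close together. The means were 55.5 ± 9.23 and 41.7 ± 1.15 FPKM (SD, n = 3 each). The log2 difference was -0.39 (SE 0.15, 95% interval -0.70 to -0.09, unadjusted p = 0.0134). Without the set-apart libraries it was -0.28, with an unadjusted p of 0.0775. Sqle, the squalene epoxidase, had 15.5 to 17.1 FPKM in saline and 11.2 to 13.9 FPKM in cocaine without overlap, and Nsdhl, a sterol dehydrogenase, 7.15 to 10.2 and 6.25 to 7.27 FPKM. The summed level of the 21 genes was 334, 367 and 346 FPKM in saline and 314, 311 and 298 FPKM in cocaine. All 3 cocaine sums were below each of the other 60 libraries, whose lowest was 338 FPKM. Saline replicate 1 was also below these. Oligodendrocytes make much of the brain's cholesterol, and their markers had a median log2 difference of -0.13. The part of these cells in the difference was not tested.

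The sterol regulatory element is the DNA motif through which SREBP factors control this pathway. The start region of Hmgcs1 on chromosome 13 is shown because this gene had the smallest p of the group. It is chr13:119690101-119690400 on the plus strand in GRCm38.p6 (RefSeq), 250 bases before to 50 after the start, with the motif in capitals.
Hmgcs1: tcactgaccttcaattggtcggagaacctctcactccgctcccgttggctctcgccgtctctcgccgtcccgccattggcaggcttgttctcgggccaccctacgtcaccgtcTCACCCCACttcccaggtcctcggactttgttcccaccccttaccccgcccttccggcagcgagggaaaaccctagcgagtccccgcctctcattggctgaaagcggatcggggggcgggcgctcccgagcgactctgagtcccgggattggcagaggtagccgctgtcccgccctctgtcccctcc
The motif searched on both strands was TCACNCCAC. It was present in 1 of the 17 promoter windows at hand for the pathway's genes and in 1.24% of all 32851 windows of this length. Not all of the 21 genes had a window, and Sqle was among those without. The match is a description of the sequence.

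Of 71 potassium channel genes, 45 were negative (median -0.13), and 6 were lower at an unadjusted p under 0.05, against 1.08% of all genes. The summed level of the list overlapped between groups, at 1406 to 1567 FPKM in saline and 1346 to 1583 FPKM in cocaine. Of these 6, Kcnj9, Kcnj3 and Kcnj6 encode subunits of the G protein-gated channels that open when inhibitory receptors such as D2R are active. Kcnj9 had 36.7, 18.3 and 25.4 FPKM in saline and 15.2, 18.0 and 14.3 FPKM in cocaine (log2 difference -0.68, SE 0.24, unadjusted p = 0.00784). Without saline replicate 1 its log2 difference was -0.43, with an unadjusted p of 0.109. In WT saline at ZT15 Kcnj9 had 15.3 to 19.7 FPKM. Kcnj3 stood at 13.8, 16.2 and 12.1 FPKM in saline and 5.54, 8.04 and 10.03 FPKM in cocaine (-0.78, SE 0.30, unadjusted p = 0.0107). Kcnj6, looked up after its values were seen, had 3.12, 3.80 and 1.61 FPKM in saline and 0.775, 1.77 and 1.07 FPKM in cocaine, with overlap. The 2-pore channels Kcnk4 and Kcnk3 did not overlap, at 1.66 to 3.396 against 0.616 to 0.972 FPKM and 4.18 to 6.16 against 3.27 to 3.95 FPKM. Cortical and septal markers differed between the libraries as given above, and their part in these differences was not tested.

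Receptor families were otherwise near 0. The medians were 0.03 for 15 GABA-A subunits, -0.01 for 17 ionotropic glutamate receptor subunits and -0.0031 for 10 serotonin receptors, with no member at an unadjusted p under 0.05. Grm2, a presynaptic glutamate receptor, had 4.24, 2.47 and 3.07 FPKM in saline and 1.26, 1.17 and 1.65 FPKM in cocaine (log2 difference -0.84, SE 0.33, unadjusted p = 0.0142). Htr1b, a serotonin receptor on spiny neuron terminals, stood within 35.9 to 38.3 FPKM in saline and 48.9 to 49.98 FPKM in cocaine. The replicates were tight in these groups, but the fit across all 66 libraries, where Htr1b ranged from 4.84 to 84.7 FPKM elsewhere, gave an unadjusted p of 0.251. Among 15 neuropeptide genes only Cck, the cholecystokinin precursor made by cortical and other neurons, had an unadjusted p under 0.05. It stood at 97.8, 144 and 74.7 FPKM in saline and 39.7, 43.9 and 30.2 FPKM in cocaine, a log2 difference of -1.42 (SE 0.63, unadjusted p = 0.0289), and -1.02 (unadjusted p = 0.223) without the set-apart libraries.

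Lists of protein folding and RNA processing were as follows. 19 of 21 heat-shock chaperones (median 0.12), 15 of 17 endoplasmic reticulum chaperones (0.14) and 23 of 25 splicing factors (0.12) were positive, and none had an unadjusted p under 0.05. In these 3 lists the summed level was highest in the set-apart library of each group. For splicing factors it was 1297, 1965 and 1339 FPKM in saline and 1500, 1499 and 2106 FPKM in cocaine, and for heat-shock chaperones 1718 to 2537 and 1925 to 2909 FPKM. Hyou1, a chaperone of the endoplasmic reticulum, had 30.6 to 37.6 FPKM in saline and 37.3 to 40.7 FPKM in cocaine. Srsf3, a splicing factor, did not overlap, at 22.4 to 23.2 FPKM in saline and 26.1 to 29.7 FPKM in cocaine. Housekeeping complexes were closer to 0, with medians of 0.07 for 68 ribosomal protein genes, 0.02 for 76 oxidative phosphorylation genes and 0.03 for 36 proteasome genes. With median-ratio scaling the median of all genes was -0.01. The oxidative phosphorylation median was then -0.0006, with 37 of 76 positive instead of 45. MAP kinase feedback genes had a median of 0.06 (13 of 16 positive) and interferon-induced genes one of 0.15 (10 of 13), in which Ifit1 had an unadjusted p of 0.0352 at a low level (0.585 to 1.03 FPKM in saline and 0.652 to 2.43 FPKM in cocaine).

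Other glial and vascular marker lists had medians close to 0. The medians were -0.06 for 4 oligodendrocyte precursor markers, -0.07 for 8 astrocyte markers, 0.11 for 8 microglia markers, 0.04 for 8 endothelial markers and -0.0035 for 6 mural and meningeal markers. No member of these lists had an unadjusted p under 0.05. Striatal interneuron markers had a median of 0.06. Of 5 erythrocyte markers 1 was tested, Alas2, at 0.569 to 1.45 FPKM in saline and 0.785 to 1.01 FPKM in cocaine.

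4 of the 12 higher genes and 1 of the 12 lower genes chosen by p were entries for microRNA precursors, short features in which few reads give a large FPKM. These polyadenylated libraries do not measure mature microRNAs. Mature sequences from RefSeq (GRCm38.p6) are shown for the entries that had one, with the seed, bases 2 to 8, in capitals.
miR-1188-5p: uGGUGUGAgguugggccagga
miR-1188-3p: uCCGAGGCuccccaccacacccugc
miR-199b-3p: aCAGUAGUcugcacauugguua
miR-142b: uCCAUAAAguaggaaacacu
No 2 of these share a seed. Mir1188, on chromosome 12, was listed at 0 in the 3 saline libraries and at 57.4, 114 and 78.7 FPKM in cocaine. It was also listed at 0 in 30 of the other 60 libraries, which reached 1544 FPKM at most, and no fold is given against a group at 0. In a fit of the 6 libraries alone it was the 1 gene called, with an adjusted limma p of 0.00094. Mir199b was listed at 157 FPKM in cocaine replicate 1 and Mir142b at 159 FPKM in cocaine replicate 3. Mir6336 was listed at 31.0 FPKM in saline replicate 1. All 3 were at 0 in each other library of the series. The entry joining Adgre5 with Mir1668 had 285 FPKM in cocaine replicate 1 and 4.24 to 4.77 FPKM in the other 5. Each of these 4 entries thus rested on 1 library.

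Whether the cocaine effect at ZT15 differed from that in WT mice was tested directly. No gene passed, with 0 of 13518 (0.0%) at an adjusted limma p under 0.05 and a smallest adjusted p of 0.445. At an unadjusted p under 0.05 the effect was higher in iMSN-D2RKO for 179 genes (1.32%) and lower for 200 (1.48%), together 2.8%. With median-ratio scaling these counts were 157 and 285. In WT alone no gene was called either, with 788 genes (5.83%) at an unadjusted p under 0.05. The smallest p of this test belonged to Fcgr3, an immunoglobulin receptor of microglia, with 6.44, 6.26 and 2.47 FPKM in WT cocaine and 9.45 to 10.6 FPKM in WT saline. In iMSN-D2RKO it had 7.02 to 11.5 FPKM in saline and 10.8 to 13.2 FPKM in cocaine, so the effect differed by 1.29 (SE 0.28, adjusted p = 0.445). Among genes with a higher effect in the mutants, Srsf3 and Dusp12, a phosphatase, were next by p, with differences of 0.82 and 0.90. Each of the 3 genes had its lowest value of all 66 libraries in WT cocaine replicate 3. That library had the lowest relative depth of the 66, at 0.346. Without it the difference for Fcgr3 was 0.93 and that for Srsf3 0.43, and 148 genes instead of 379 had an unadjusted p under 0.05.

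Among genes with a lower effect in the mutants, Apcdd1 had 10.2, 11.2 and 11.6 FPKM in WT saline and 12.8, 15.002 and 11.9 FPKM in WT cocaine. Its effect was 0.24 in WT and -0.50 in iMSN-D2RKO, a difference of -0.74 (SE 0.20, unadjusted p = 0.00062), and -0.81 without WT cocaine replicate 3. Zyx, a focal adhesion protein, had an effect of 0.44 in WT and -0.37 in iMSN-D2RKO. Col4a2, a basement membrane collagen, stood at 18.0 FPKM in WT cocaine replicate 3 and at 6.63 to 8.22 FPKM in the other 5 WT libraries. Its difference of -0.70 was -0.34 without that library. For the genes described above, Sgk1 had 33.9, 53.1 and 41.9 FPKM in WT saline and 69.2, 57.5 and 36.5 FPKM in WT cocaine, an effect of 0.31 (iMSN-D2RKO minus WT 0.61, SE 0.36, unadjusted p = 0.0926). Nrn1 had 4.39 to 9.71 FPKM in WT saline and 2.04 to 12.6 FPKM in WT cocaine, an effect of 0.00. Nr4a1 had 35.0 to 45.8 FPKM in WT saline and 71.96 to 102 FPKM in WT cocaine, an effect of 1.01 (SE 0.30). Hmgcs1 was lower in WT too, by -0.33 (SE 0.15), with 47.9 to 53.2 FPKM in saline and 33.6 to 48.2 FPKM in cocaine.

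The effect at ZT15 was also set against the mean effect at ZT7, ZT11, ZT19 and ZT23 in iMSN-D2RKO mice. Again 0 of 13518 genes (0.0%) had an adjusted limma p under 0.05, the smallest being 0.704, and 75 (0.555%) were higher and 122 (0.903%) lower at an unadjusted p under 0.05, together 1.46%. With median-ratio scaling these were 54 and 157. Taken alone, the effect at ZT7 was called for 1 gene (0.0074%) and those at ZT11, ZT19 and ZT23 for none. At an unadjusted p under 0.05 it held 23.8% of genes at ZT7, 0.148% at ZT11, 16.7% at ZT19 and 1.61% at ZT23. The iMSN-D2RKO libraries at ZT7 and ZT19 were uneven. Saline replicate 1 at ZT7 had the highest summed FPKM of the 66 libraries, at 690048, and a relative depth of 0.371. Cocaine replicate 2 at ZT7 was set apart. At ZT19 saline replicates 1 and 3 were set apart, and no cocaine library was. The part of these libraries in the shares at ZT7 and ZT19 was not tested. Sgk1 differed by 0.92 (SE 0.28, unadjusted p = 0.002), since its effects at the other times were -0.09 at ZT7, 0.13 at ZT11, -0.41 at ZT19 and 0.37 at ZT23. Its saline mean at ZT11 was 59.8 ± 13.0 FPKM (SD, n = 3), close to the cocaine mean at ZT15. Plekha7, a junction protein, had an effect of -0.79 at ZT15. At ZT7, ZT11, ZT19 and ZT23 its effects were -0.09, 0.19, 0.77 and 0.02 (SE 0.27 each). Of these, only that at ZT19 was larger than its SE. The effect on Nrn1 was -1.73 at ZT7, 0.07 at ZT11, 0.63 at ZT19 and -0.20 at ZT23. Nr4a1 had effects of -0.38, -0.11, 0.54, 1.12 and 0.49 from ZT7 to ZT23. Egr3 had a positive effect at each of these times, from 0.10 to 0.61.

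**Figure D5:**
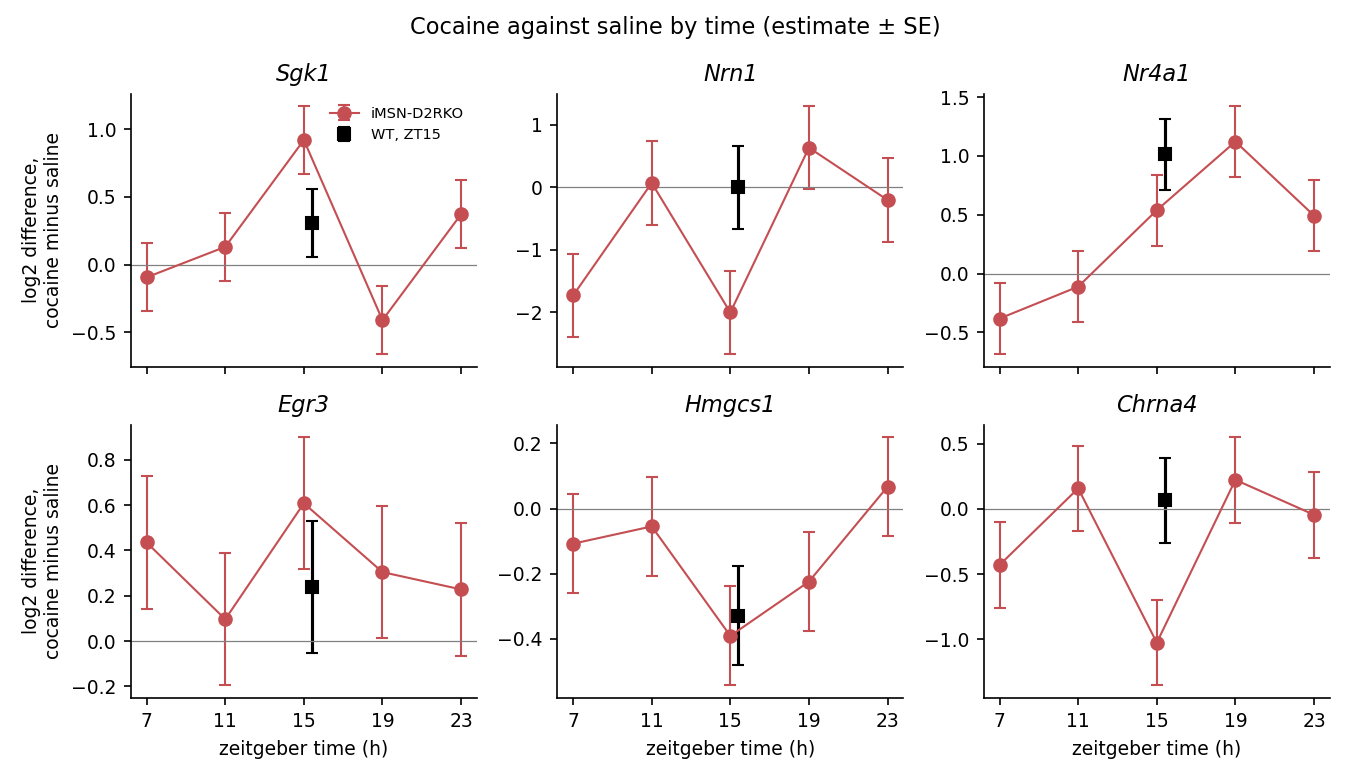
Log2 difference, cocaine minus saline, in log2(FPKM + 1) (vertical axes) by zeitgeber time in hours (horizontal) for 6 genes. Red circles are iMSN-D2RKO and black squares WT at ZT15, with SE from the fit of all 66 libraries. Sgk1 is highest at ZT15 (0.92), and Chrna4 is lowest at ZT15 (-1.02).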

How the data were processed

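NAcc RNA of 66 libraries (22 groups of 3) was sequenced as stranded poly(A) libraries. Per the labels, the authors used CASAVA 1.8.2, Bowtie and Cuffnorm with mm10 (equivalent to GRCm38). The deposited values are FPKM per gene made by the authors with Cuffnorm, without read counts, so depth per library is known only relative to the others. In the main fit their precision was judged from the spread between the 3 libraries of a group, pooled over all 22 groups. 6 libraries appear in 2 identical columns and were used once. Gene entries can join overlapping genes.

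Genes reaching 1 FPKM in any of the 6 libraries were tested with limma 3.58.1 (R 4.3.3) on log2(FPKM + 1), with a mean for each group in 1 fit of all 66 libraries and a trended variance. Differences understate those of genes near 1 FPKM. P-values were Benjamini-Hochberg adjusted over all genes tested (threshold 0.05). The effect minus that in WT, and minus the mean of the other times, were contrasts in the same fit. Recovery was tested on simulated data with independent noise. A library was set apart when its score on the first axis of within-group differences (9584 genes above 5 FPKM on average) was above 30.

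The comparison, the lists and the rule for named genes were chosen with earlier results of these data known. Named genes were the study's 9 genes of interest, the 12 smallest p per direction with at least 5 FPKM in the higher group, the 4 smallest p of each list with further members at 20 FPKM or more without overlap, the 3 smallest p per direction of each further contrast, and all markers. Libraries were separate mice as far as the design text states (3 per time point). In the main fit p-values rest on the spread between libraries of a group, pooled over all 22 groups. Alternatives were another pseudocount, filter, scaling and variance model, a replicate block, the library score as covariate, and fits without single or set-apart libraries. Promoter and microRNA sequences are from RefSeq (GRCm38.p6). Python 3.11.15 was used for tables.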

Additional observations from a re-analysis of the deposited data

How the results depend on the processing

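The count of genes called at ZT15 stayed at 0 with a pseudocount of 0.1, without a filter, with a mean of at least 5 FPKM, with median-ratio scaling, without a variance trend, with the library score as covariate and without the set-apart libraries. It was 1 in a fit of the 6 libraries alone (Mir1188) and 2 when that fit held the library score, chosen after seeing the data (Mir1188 and Necab3). Leaving out 1 library at a time gave 0 to 3 calls. These were Sgk1, Fam83d and Mir142b without cocaine replicate 1, Mir142b, Mir199b and the Adgre5 entry without replicate 2, and the last 2 without replicate 3. Mir6336 was the call without saline replicate 2 or 3. The contrasts with WT and with the other times gave 0 calls in each alternative.

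Of 13518 genes, 204 had an unadjusted p under 0.05. This count was 441 without a filter, 98 at a mean of at least 5 FPKM, 484 with the score, 503 without the set-apart libraries, 1106 for the 6 libraries alone with the score, and 107 to 486 with 1 library left out, the extremes being without saline replicates 1 and 2. For the contrast with WT (379) it was 772, 1220 and 832 without a filter, with the score and without the set-apart libraries, and 148 to 735 with 1 library left out. For the contrast with other times (197) it was 442, 89, 491 and 448 without a filter, at a mean of at least 5 FPKM, with the score and without the set-apart libraries, and 105 to 510 with 1 library left out. Of the genes tested, 547 did not overlap between groups, 332 at a mean of at least 5 FPKM, and 799 to 3389 with 1 library left out, where fewer libraries make overlap rarer. Sgk1 and Fam83d without cocaine replicate 1, and Necab3 in the fit of 6 libraries with the score, were the 3 changes of call among 423 alternative values of 25 named genes. Since none of these genes was called in the first place, the other values say little about stability. Drd2, Slc17a6, Slc17a7, Zbtb16, Kcnj9, Nr4a1, Crem, Penk and Sult1a1 moved by over 1.5 times when 1 library was left out.

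Replicate numbers are shared by the groups, and the labels do not say whether they pair the libraries. Same-numbered deviations from the group mean correlated at 0.449, -0.571 and -0.598. Cocaine replicate 3 correlated best with saline replicate 2 (0.774), and both are set apart. With 3 libraries a group a set-apart library weighs on each of these correlations, so they cannot decide on a pairing. With the number as a replicate block there were 0 calls in the 66-library fit (213 genes at an unadjusted p under 0.05) and 1 in a blocked fit of the 6 libraries (101).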
